A study of Mus musculus with 6 samples.

Results

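The 10 genes described here belong to the circadian clock and to its output arm of PAR-bZIP factors, and were chosen by name. Per2, Per3, Cry1 and Cry2 encode repressors of the clock, Clock and Npas2 encode its activators, Dbp, Tef and Hlf encode the PAR-bZIP activators, and Nfil3 encodes the repressor that competes with them. A gene was measured where a probe set of the array was annotated with its symbol alone, which held for 9 of the 10 genes and for 19938 genes of the whole array. Npas2 was not analysed here. Of the 9 measured genes, 8 were bright enough to be tested among 11963 genes, and Hlf was not.

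The tissue was epididymal white fat (eWAT), a depot inside the abdomen, taken from obese male C57BL6/J mice that had been on a high-fat diet (HFD) for 12 weeks, beginning when they were 6 weeks old. All mice had received injections into this depot of a recombinant adeno-associated virus (rAAV), which carried yellow fluorescent protein (rAAV-YFP, the control) or Lmo3 (rAAV-Lmo3), a LIM-domain cofactor of transcription. There were 3 arrays for each virus, and RNA of 2 mice was combined into the pool that each array received. The virus was of the Rec2 serotype and its cargo was driven by a CMV enhancer with a chicken β-actin promoter, which is not restricted to adipocytes. The treatment protocol of the labels names a rAAV-LacZ control where the sample titles name rAAV-YFP, and the titles were followed. The labels give no time of day at which tissue was taken, on which the level of most clock genes depends.

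Values are probe set intensities after robust multi-array averaging (RMA), and differences are given as rAAV-Lmo3 minus rAAV-YFP on the log2 scale. The probe set for Lmo3 itself was listed at 25, 24 and 24 in the control pools and at 24, 26 and 24 in the rAAV-Lmo3 pools, so that it did not separate the groups, and every direction below rests on the labels. The arrays named rAAV-YFP 2 and rAAV-Lmo3 1 stood apart: on average they correlated with the others at 0.988 and 0.986, against 0.990 to 0.991 for the remaining 4. Summed intensities of 9 adipocyte markers lay between 59671 and 75179 on all arrays, and 4 of 5 epididymis markers were dim on every array.

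In the mammalian clock, CLOCK or its paralogue NPAS2 pairs with ARNTL (also called BMAL1) and activates genes through E-boxes, among them the Per and Cry genes, whose proteins return to the nucleus and repress the pair. Nuclear receptors of the REV-ERB and ROR families act on ROR elements and set the rhythm of Arntl, Clock, Npas2, Cry1 and Nfil3. DBP, TEF and HLF bind D-boxes as activators and NFIL3 (also called E4BP4) occupies the same sites as a repressor, and through these sites the clock reaches genes of metabolism and of detoxification. White fat holds such a clock of its own, which takes cues from feeding and glucocorticoids.

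None of the clock and PAR-bZIP genes passed the test between the groups, and the groups overlapped for each of the 9 genes measured, where they did not overlap for 10.5% of all genes tested. Per2 had the lowest mean difference of the 9, at -0.29, and Dbp and Nfil3 had the highest, at 0.31 and 0.30, whereas Clock, Cry1 and Cry2 lay within 0.01 of 0. The level varied from array to array, over 1.14 log2 units across all 6 arrays for Per2. In the limma fit 0 of the 8 tested genes passed at an adjusted p under 0.05, where 0% of all genes did, and 0 of 8 passed at an unadjusted p under 0.05, where 4.66% of all genes did. The median difference of the 9 genes was -0.01, beside 0.00 over all genes tested. The number of arrays limits the precision, since an exact permutation test of 3 pools against 3 cannot give a p below 0.1. The p-values weigh a group difference against the variation between pools. With 2 mice in each pool, the variation between single mice is not seen.

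**Figure D1:**
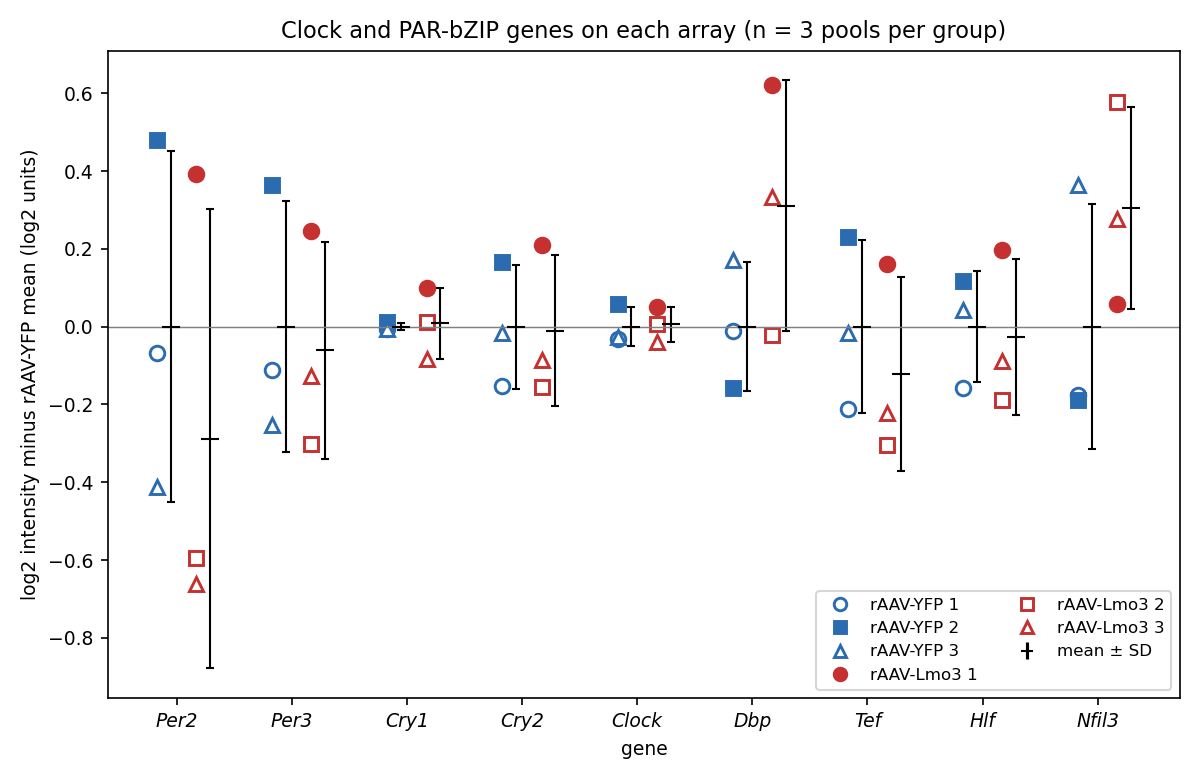
Level of each measured gene on each array, as log2 intensity minus the mean of the rAAV-YFP arrays (y axis, log2 units), with rAAV-YFP arrays in blue and rAAV-Lmo3 arrays in red; bars give the mean and SD of 3 pools. The filled symbols are the arrays rAAV-YFP 2 and rAAV-Lmo3 1, which lie at the top of their group for 7 of the 9 genes and at the bottom for Nfil3.

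Clock encodes the activator that pairs with ARNTL. Its intensity was 1735, 1847 and 1743 in control pools 1 to 3 and 1837, 1783 and 1726 in rAAV-Lmo3 pools 1 to 3. These values spanned 0.10 log2 units over all 6 arrays, the narrowest span of the 9 genes. The difference was 0.01 with an interval of -0.17 to 0.18 (SE 0.07, limma adjusted p = 0.996).

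The Period genes encode repressors that respond quickly to hormonal cues as well as to the clock. Per2 was at 311, 455 and 245 in the control pools and at 428, 216 and 206 in the rAAV-Lmo3 pools. The rAAV-YFP 2 and rAAV-Lmo3 1 arrays were high and the other arrays lower, with both rAAV-Lmo3 2 and 3 under every control array. The means were 8.35 ± 0.45 in rAAV-YFP tissue and 8.06 ± 0.59 in rAAV-Lmo3 tissue (log2, SD, n = 3 each). The difference of -0.29 had an interval from -1.09 to 0.52 (SE 0.34, limma adjusted p = 0.971). Its size depended on the arrays that stood apart: it was -0.63 without rAAV-Lmo3 1, where the unadjusted p was 0.0442, and -0.05 without rAAV-YFP 2. Without both it was -0.39, at an unadjusted p of 0.0266 and an adjusted p of 1 in limma.

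Per3 ran at 275, 382 and 249 in the control pools and at 352, 241 and 272 in the rAAV-Lmo3 pools. As for Per2, rAAV-YFP 2 and rAAV-Lmo3 1 held the highest levels, and the groups overlapped over most of their range. The difference was -0.06, with an interval of -0.54 to 0.42 (SE 0.20, limma adjusted p = 0.992), and it stood at 0.12 without rAAV-YFP 2.

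The Cryptochromes encode the partners of the Period proteins in repression. Cry1 was at 172, 174 and 172 in the control pools and at 185, 174 and 163 in the rAAV-Lmo3 pools. Its values spanned 0.18 log2 units, and the difference was 0.01 with an interval of -0.18 to 0.20 (limma adjusted p = 0.996). Cry2 was at 414, 516 and 455 in the control pools and at 532, 413 and 433 in the rAAV-Lmo3 pools. Here the same 2 arrays were again the highest of their groups, while the group difference was -0.01 with an interval of -0.32 to 0.30 (limma adjusted p = 0.996).

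Of the PAR-bZIP activators, Dbp is a classic direct target of CLOCK and ARNTL. Its intensity was 444, 401 and 504 in the control pools and 689, 441 and 564 in the rAAV-Lmo3 pools. On rAAV-Lmo3 1 and 3 it lay above every control array, and on rAAV-Lmo3 2 it lay among them. The difference was 0.31, or 1.24-fold, with an interval of -0.11 to 0.73 (SE 0.18, limma adjusted p = 0.97). The arrays that stood apart held the lowest control value and the highest rAAV-Lmo3 value, and without both the difference was 0.08. Without rAAV-Lmo3 2 it was 0.48, at an unadjusted p of 0.0189 and an adjusted p of 0.914 in limma.

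Tef, the second activator of the family, was at 290, 394 and 332 in the control pools and at 376, 272 and 288 in the rAAV-Lmo3 pools. It was high on rAAV-YFP 2 and rAAV-Lmo3 1, as Per2 and Per3 were, and did not follow Dbp, which was lowest on rAAV-YFP 2. The difference was -0.12 with an interval of -0.51 to 0.27 (SE 0.16, limma adjusted p = 0.971). Hlf, the third activator, was at 100, 121 and 115 in the control pools and at 128, 98 and 105 in the rAAV-Lmo3 pools. Its mean lay just under the brightness limit of 114 for testing. Without that limit its difference was -0.03, with an interval of -0.32 to 0.27 and an adjusted p of 0.996 in limma.

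Nfil3, which encodes the repressor of D-box genes and also acts in immune cells, was at 199, 197 and 289 in the control pools and at 234, 335 and 272 in the rAAV-Lmo3 pools. The control array rAAV-YFP 3 lay within the rAAV-Lmo3 range, and the other control arrays lay below it. The difference was 0.30, or 1.23-fold, with an interval of -0.16 to 0.77 (SE 0.19, limma adjusted p = 0.97), and it was 0.33 without both arrays that stood apart. Without rAAV-YFP 3 it was 0.49, at an unadjusted p of 0.0285 and an adjusted p of 0.855 in limma. The activator Dbp and the repressor Nfil3 thus had similar mean differences in the same direction, neither of which passed the test.

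**Figure D2:**
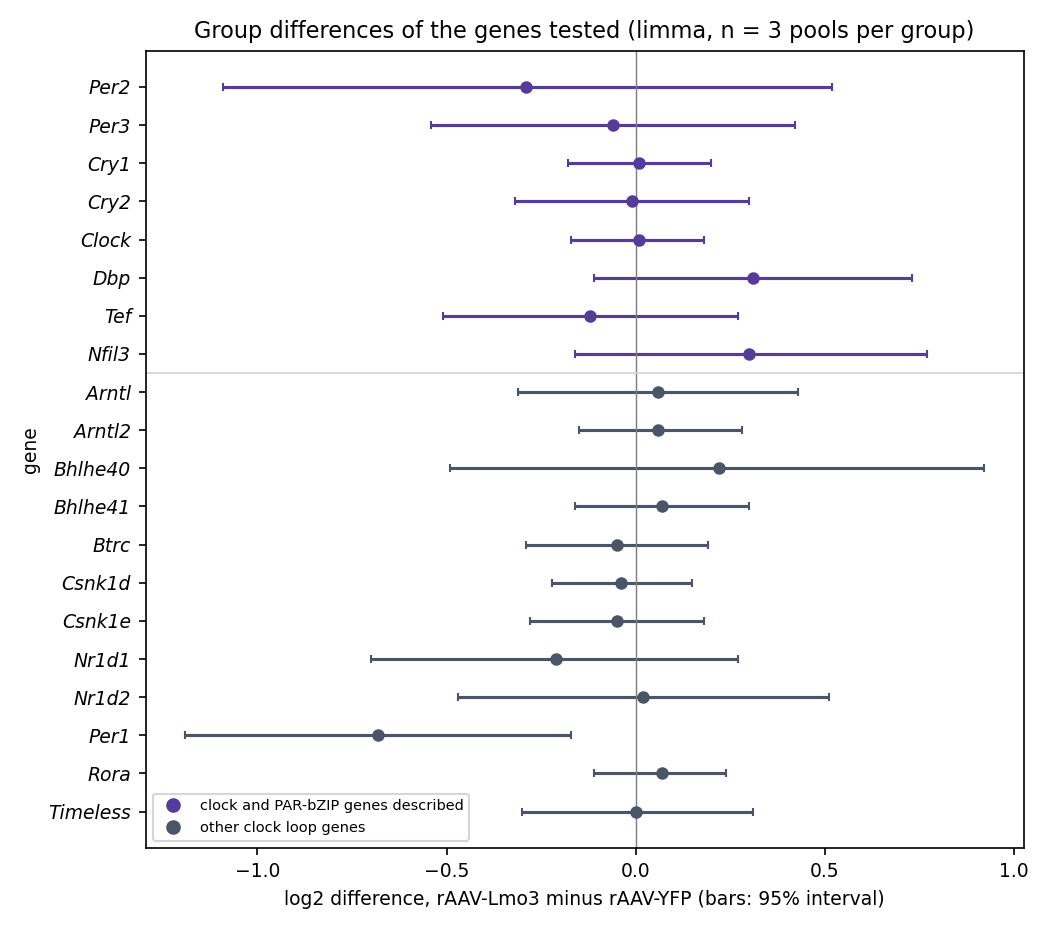
Difference between the groups for each tested gene (x axis, log2 units, rAAV-Lmo3 minus rAAV-YFP; bars give the 95% interval of the limma fit), with the clock and PAR-bZIP genes above the line and the other clock loop genes below it. The intervals of all 8 genes above the line hold 0, with Per2 the widest at -1.09 to 0.52, and that of Per1 below the line does not.

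Most of the genes ran highest on the same pair of arrays, 1 of each group, which were those that stood apart. Per2, Per3, Cry1, Cry2, Clock, Tef and Hlf, 7 of the 9, had their highest value of each group on rAAV-YFP 2 and on rAAV-Lmo3 1, a pattern that 20.7% of all genes tested showed. Nfil3 had its lowest value of each group on the same arrays, as 25.8% of all genes did, and Dbp did neither. The steps were widest for Per2, at 1.65-fold on rAAV-YFP 2 and 2.03-fold on rAAV-Lmo3 1 over the mean of the other arrays of the group. They were 1.46-fold and 1.37-fold for Per3, 1.27-fold and 1.34-fold for Tef, and 1.19-fold and 1.26-fold for Cry2. For Hlf they were 1.13-fold and 1.26-fold, and they were narrow for Clock, at 1.06-fold and 1.05-fold, and Cry1, at 1.01-fold and 1.1-fold. For Dbp they went in opposite directions, at 0.848-fold and 1.38-fold, and for Nfil3 both were below 1, at 0.821-fold and 0.775-fold. The 7 genes became 6 with each array centred on its median, where Cry1 left the set and the share of all genes was 20.6%. They were also 6 after a second quantile normalization, where Clock left it and that share was 27%. Since the arrays fell into these separate sets, correlations between the 9 genes over the 6 arrays are not given.

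The same arrays held the lowest macrophage signal. Summed over 10 macrophage markers, intensity was 31074, 14097 and 21279 in control pools 1 to 3 and 16278, 25110 and 28477 in rAAV-Lmo3 pools 1 to 3. On rAAV-YFP 2 and rAAV-Lmo3 1, 9 of the 10 markers were at their lowest of each group, as 25.8% of all genes tested were. Summed over 9 adipocyte markers, intensity was 63090, 75179 and 68631 in the control pools and 72935, 64971 and 59671 in the rAAV-Lmo3 pools. Of the 9, 6 were at their highest of each group on that pair, as 20.7% of all genes tested were. None of these markers was at 0. In whole tissue fewer cells of a type and less RNA per cell cannot be told apart, and the part of the cell mixture in the array-to-array levels of the clock genes was not tested. Comparing the pair with each other, rAAV-Lmo3 1 minus rAAV-YFP 2, gave -0.09 for Per2, -0.12 for Per3, -0.07 for Tef, 0.78 for Dbp and 0.25 for Nfil3, as single differences with no replicate. Other cell types were read as well. Of 6 endothelial markers 0 passed at an unadjusted p under 0.05, of 6 adipose progenitor markers 0 and of 5 tested mesothelial markers 0, where 4.66% of all genes did. Summed over 6 mesothelial markers, intensity was 839, 1074 and 2063 in control pools 1 to 3. It was 987, 798 and 1113 in rAAV-Lmo3 pools 1 to 3, so that rAAV-YFP 3 was the highest array. Of 6 T cell markers on the array only 2 were bright enough to be tested, and both passed before adjustment, as 2.4% of all genes did in that direction. These were Cd3e at -0.42 and Cd2 at -0.37, and neither passed after adjustment (adjusted p = 0.97 for each in limma).

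**Figure D3:**
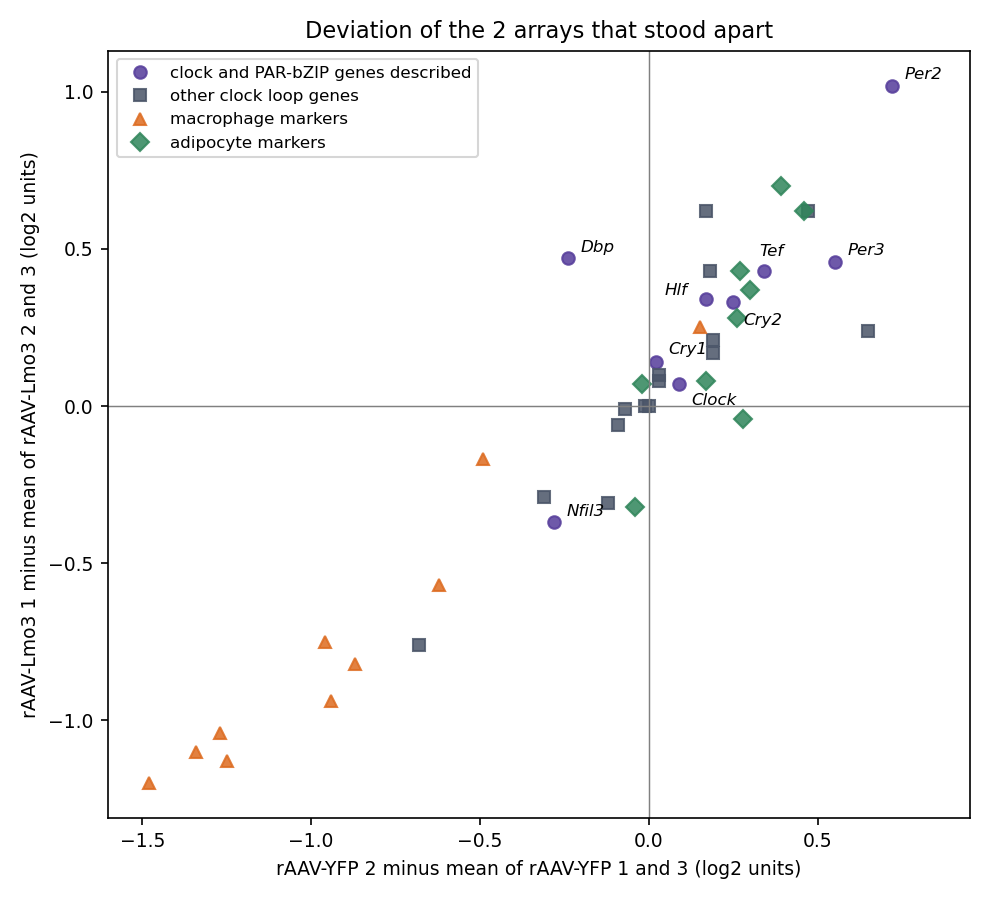
Deviation of rAAV-YFP 2 from the mean of the other rAAV-YFP arrays (x axis, log2 units) against that of rAAV-Lmo3 1 from the mean of the other rAAV-Lmo3 arrays (y axis, log2 units), with 1 point per gene. Per2 lies at the upper right, at 0.72 and 1.02, with Per3, Tef, Cry2 and Hlf on the same side as most adipocyte markers, Nfil3 lies on the side of the macrophage markers, and Dbp lies to the upper left.

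No motif searched was found in every gene that ran highest on that pair and had a promoter window. This set leaves out Per2, which had no window, and holds Clock, whose steps were narrow and which held no motif. Windows from 250 bases before to 50 bases after the annotated start (RefSeq, GRCm38.p6) were at hand for 9 of the 10 genes, all but Per2, in 12 windows. Short motifs of 5 kinds were searched on both strands, and 6 of these 9 genes held any of them. Clock, Npas2 and Dbp held none, which says only that these letters are not in those windows. The windows of Per3, Cry2 and Tef are shown because these 3 genes, with Per2, had some of the widest steps on the arrays that stood apart. These windows hold an E-box, an E'-box, a D-box or a match to the ROR element pattern in different combinations. Each is printed on the strand of its gene, with the motifs in capitals.
Per3, chr4:151044616-151044915, minus strand: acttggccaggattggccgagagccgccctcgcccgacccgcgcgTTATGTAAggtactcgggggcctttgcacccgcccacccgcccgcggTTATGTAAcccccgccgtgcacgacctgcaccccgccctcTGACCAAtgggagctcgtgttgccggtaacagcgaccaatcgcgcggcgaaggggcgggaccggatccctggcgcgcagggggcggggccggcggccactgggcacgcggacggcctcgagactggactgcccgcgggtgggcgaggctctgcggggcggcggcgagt
Cry2, chr2:92434020-92434319, minus strand: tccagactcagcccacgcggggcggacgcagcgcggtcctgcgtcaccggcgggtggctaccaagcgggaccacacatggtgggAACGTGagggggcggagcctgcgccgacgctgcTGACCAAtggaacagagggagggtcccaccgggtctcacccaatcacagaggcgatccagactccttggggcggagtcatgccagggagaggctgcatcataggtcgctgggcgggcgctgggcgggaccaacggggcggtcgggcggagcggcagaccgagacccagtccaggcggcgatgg
Tef, first start, chr15:81802423-81802722, plus strand: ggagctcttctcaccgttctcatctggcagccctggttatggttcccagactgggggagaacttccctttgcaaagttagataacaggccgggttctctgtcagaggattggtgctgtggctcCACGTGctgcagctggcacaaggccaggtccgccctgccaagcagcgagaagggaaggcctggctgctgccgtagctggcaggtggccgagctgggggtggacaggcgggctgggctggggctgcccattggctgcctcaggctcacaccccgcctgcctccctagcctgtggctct
Tef, second start, chr15:81811164-81811463, plus strand: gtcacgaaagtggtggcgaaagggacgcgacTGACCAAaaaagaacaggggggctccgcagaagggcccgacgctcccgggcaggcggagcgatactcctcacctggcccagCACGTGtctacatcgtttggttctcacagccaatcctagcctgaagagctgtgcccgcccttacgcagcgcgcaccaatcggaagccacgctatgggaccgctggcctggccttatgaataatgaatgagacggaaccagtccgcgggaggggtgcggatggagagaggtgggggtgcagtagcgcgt
In the Per3 window the capitals mark D-boxes that begin 205 and 158 bases before the start and a match to the ROR element pattern TNGGTCA at 118. In the Cry2 window they mark an E'-box at 166 and a match to the ROR pattern at 133. Both Tef windows hold an E-box, at 127 and 138 bases before their starts, and the second also holds a match to the ROR pattern at 219. Elsewhere, the Cry1 window (chr10:85185005-85185304, minus strand) had an E-box at 60 and an E'-box at 79. The Hlf window (chr11:90390868-90391167, minus strand) had a CRE at 9, and the Nfil3 window (chr13:52980990-52981289, minus strand) a match to the ROR pattern at 12. The ROR pattern is loose, as its N stands for any base. On the printed strand its matches read TGACCAA for Per3, Cry2 and Tef and TGACCTA for Nfil3. In the direction of the pattern, the N is thus a T in Per3, Cry2 and Tef and an A in Nfil3. A match to the loose pattern does not make a ROR element, and whether any of them is one was not tested. Of 32851 promoter windows of the same length, 7.15% held the E-box (CACGTG), 4.68% the E'-box (CACGTT) and 2.32% the D-box (TTANGTAA). The ROR pattern (TNGGTCA) was in 11.0% and the CRE (TGACGTCA) in 1.79%. The marked motifs did not overlap one another in the windows printed, and a match is a description of the sequence and not evidence of binding.

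Among 15 other genes of the clock loop on the array, 12 were tested, and 1, Per1, passed at an unadjusted p under 0.05, as a lower level in rAAV-Lmo3 tissue. Per1 encodes a Period repressor that glucocorticoids induce directly. It was at 719, 1056 and 808 in the control pools and at 704, 455 and 463 in the rAAV-Lmo3 pools. The groups did not overlap, as for 10.5% of all genes tested, though rAAV-Lmo3 1 came close to the lowest control array. The difference was -0.68, or 0.623-fold, with an interval of -1.19 to -0.17 (SE 0.21), and it was -0.73 without both arrays that stood apart. Before adjustment 2.4% of all genes passed in that direction. For Per1 the unadjusted p was 0.0162 and the adjusted p 0.97 in limma. The call before adjustment was lost without rAAV-YFP 2, without rAAV-Lmo3 2, without rAAV-Lmo3 3 and by the methods' t-test. Per1 was at its highest of each group on rAAV-YFP 2 and rAAV-Lmo3 1, as Per2 and Per3 were.

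Arntl, the partner of CLOCK, was at 275, 255 and 362 in the control pools and at 269, 326 and 330 in the rAAV-Lmo3 pools, lowest on the arrays where the Period genes were highest. Its difference was 0.06 (limma adjusted p = 0.988). Nr1d1, which encodes the nuclear receptor REV-ERBα that represses Arntl, was at 2237, 3219 and 1888 in the control pools and at 2297, 1807 and 2096 in the rAAV-Lmo3 pools, a difference of -0.21 (limma adjusted p = 0.971). It was thus highest where Arntl was lowest in both groups. Its relative Nr1d2 was at 555, 583 and 483 in the control pools and at 729, 411 and 546 in the rAAV-Lmo3 pools, again highest on rAAV-YFP 2 and rAAV-Lmo3 1, with a difference of 0.02 (limma adjusted p = 0.996). Bhlhe41, which encodes an E-box repressor also called DEC2, lay between 248 and 302 on all arrays and differed by 0.07 (limma adjusted p = 0.971). Of the 15 genes, of which 3 were dim on every array, 7 were highest of each group on that pair, as 20.7% of all genes tested were. On the same pair 2 were lowest of each group, as 25.8% of all genes tested were. The median difference of the 15 was 0.00.

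Of 8 clock output genes tested, 1 passed before adjustment and 0 after it, and their median difference was 0.10. Of all genes tested 4.66% passed before adjustment in either direction and 2.4% as lower in rAAV-Lmo3 tissue. The 1 clock output gene that passed, Klf9, encodes a Krüppel-like factor that responds to glucocorticoids as well as to the clock. It was at 1564, 1837 and 1432 in the control pools and at 1328, 1105 and 1034 in the rAAV-Lmo3 pools. Every rAAV-Lmo3 array thus lay below every control array, and the groups did not overlap for 10.5% of all genes tested. The difference was -0.48, or 0.717-fold, with an interval of -0.80 to -0.16 (SE 0.13, unadjusted p = 0.00982 and adjusted p = 0.97 in limma), and it was -0.49 without both arrays that stood apart.

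Glucocorticoids act on Per genes and on fat, and a list of 11 target genes of that hormone was read as well. Of these 3 passed before adjustment, all lower in rAAV-Lmo3 tissue, and 0 after it, with a median difference of -0.19 over the 11. Of all genes tested 2.4% passed before adjustment in that direction and 4.66% in either. The 3 target genes were Zbtb16, a zinc finger repressor of transcription, at -1.01 (limma unadjusted p = 0.0158), Tsc22d3 and Fkbp5. Tsc22d3, which encodes the glucocorticoid-induced leucine zipper, was at -0.53 (limma unadjusted p = 0.0187). Fkbp5, which encodes a co-chaperone in the glucocorticoid receptor complex, was at -0.57 (limma unadjusted p = 0.0366). Each had an adjusted p of 0.97 in limma. The groups overlapped for Zbtb16 and Fkbp5 and did not for Tsc22d3, as for 10.5% of all genes tested. The list was not of 1 direction, as 3 of its 11 members had a difference above 0. The largest difference of the 11 in either direction was that of Lcn2, which encodes a secreted lipocalin and was named after its values were seen. It was at 604, 190 and 634 in the control pools and at 474, 1542 and 1390 in the rAAV-Lmo3 pools, a difference of 1.27 with an interval of -0.19 to 2.73 (adjusted p = 0.97 in limma). The number of the 11 target genes that passed before adjustment was 0 without rAAV-YFP 2, without rAAV-Lmo3 2, without rAAV-Lmo3 3 and by the methods' t-test. It was 5 without rAAV-Lmo3 1, where Errfi1 and Lcn2 joined Zbtb16, Tsc22d3 and Fkbp5. Without rAAV-YFP 1 it was 3, with Cebpd in the place of Fkbp5. Whether glucocorticoid action differed between the groups was not tested.

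Dbp was set beside all genes outside the lists, by the likeness of their log2 values over the 6 arrays. Among 11886 genes ranked, the highest Pearson correlations with Dbp were those of Nudt19 (0.994), Rad17 (0.993), Pfdn5 (0.992), Tiprl (0.992) and Gnpnat1 (0.990). The lowest were those of Myo10 (-0.994), Gm10612 (-0.993), Mib2 (-0.979), Mir150 (-0.978) and Cabin1 (-0.972). With 6 arrays, 71 genes exceeded 0.95, and these values describe the arrays without a test. They include both arrays that stood apart, which held the lowest and the highest level of Dbp, so the separation of the arrays touches this ranking as well.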

How the data were processed

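Total RNA of epididymal fat was hybridized to mouse Gene 1.0 ST arrays. The deposited values are intensity values per probe set, which the authors obtained by RMA in Affymetrix Expression Console 1.1, on a linear scale and rounded to whole numbers; log2 was taken here. Median intensities lay between 123 and 127.5. Of 35556 probe sets, 21789 had 1 gene symbol, 1621 several and 12146 none in the platform annotation, and for 21698 of these 21789 probe sets the gene was found in a RefSeq table (GRCm38.p6). The brightest probe set of each gene was used, and the dimmest 40% of genes (7975, those below 6.83 in log2 or 114 in intensity) were left out. Groups were taken from the sample titles. The test was that of limma 3.58.1 (R 4.3.3, two-sided) on all 6 arrays, with Benjamini-Hochberg adjustment over all genes tested at a threshold of 0.05. Intervals are 95% intervals of that fit. The steps were tested on simulated data.

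The genes and lists were chosen with earlier results of these data known. The lists were other clock loop genes, clock output genes, glucocorticoid target genes, and markers of adipocytes, macrophages, T cells, endothelium, adipose progenitors, mesothelium and epididymis. Named were the 10 genes, Per1, Arntl, Nr1d1, Nr1d2, Bhlhe41, members of the clock and glucocorticoid lists with an unadjusted p under 0.05, and the 5 genes with the highest and the 5 with the lowest correlation with Dbp. The count of genes highest on both arrays that stood apart, and its alternatives, were chosen after the values were seen. The other alternatives were median centring of the arrays, quantile normalization run a second time, array weights, a trend and robust prior, a replicate block, the methods' t-test, no filter, leaving out the dimmest 60%, averaging a gene's probe sets, and leaving out each array or both that stood apart.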

Additional observations from a re-analysis of the deposited data

How the results depend on the processing

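In all 16 alternatives 0 genes of the array passed at an adjusted p under 0.05 and the lowest adjusted p of any of the tested clock and PAR-bZIP genes was 0.831. Of 144 values of the 9 genes under the alternatives 127 kept their sign and 17 did not, all of these for Per3, Cry1, Cry2, Clock or Hlf. Cry2 was at 0.01 with each array centred on its median, Clock at -0.04 and Hlf at 0.01 after a second quantile normalization, Cry1 at -0.02 with array weights and at -0.03 without both arrays that stood apart. Leaving out 1 array at a time gave -0.63 to -0.05 for Per2, -0.21 to 0.12 for Per3, -0.04 to 0.06 for Cry1, -0.12 to 0.07 for Cry2, -0.02 to 0.03 for Clock, 0.16 to 0.48 for Dbp, -0.26 to -0.01 for Tef, -0.14 to 0.05 for Hlf and 0.17 to 0.49 for Nfil3. The cause of these changes was not tested. The median of the 9 genes then lay between -0.12 and 0.05.

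At an unadjusted p under 0.05, 558 genes passed (271 higher and 287 lower in rAAV-Lmo3), 555 by the methods' t-test and 840 without a filter on dim genes, where more genes were tested. Centring each array on its median gave 317 higher and 216 lower. Leaving out 1 array gave 263 (without rAAV-YFP 2) to 684 (without rAAV-YFP 3), and 283 without rAAV-Lmo3 3. Of the clock and PAR-bZIP genes 0 to 1 then passed unadjusted, namely Nfil3 without rAAV-YFP 3, Per2 without rAAV-Lmo3 1 and Dbp without rAAV-Lmo3 2, and 1, Per2, without both arrays that stood apart. Of the other clock loop genes 0 to 1 passed with 1 array left out, and 0 by the methods' t-test. Of the clock output genes 1 to 2 passed with 1 array left out, and 2 with centring, with a second quantile normalization, with array weights, without a filter and without both arrays that stood apart, where Usp2 or Klf10 joined Klf9. Of the glucocorticoid targets 0 to 5 passed with 1 array left out, 5 with array weights and 0 by the methods' t-test.

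Deviations of same-numbered arrays from their group means correlated at -0.55, -0.40 and 0.26 over genes. The arrays that stood apart carry different numbers, and the deviations of rAAV-YFP 2 and rAAV-Lmo3 1 correlated at 0.68. These values therefore cannot show whether replicate numbers pair the samples, and the main fit used no pairing. With a replicate block 453 genes passed unadjusted, among them 0 of the clock and PAR-bZIP genes, Per1, 2 clock output genes and 3 glucocorticoid targets.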
